A study of Mus musculus with 2 samples.

Results

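The main histone gene cluster of the mouse lies on chromosome 13, and 33 of the 10870 c-Fos peaks in the deposited list had their centres there, between positions 21700001 and 23800000 of the mm9 build. These 33 peaks are 0.304% of the list and 6.61% of the 499 peaks on chromosome 13. They were chosen by position, with the run of 9 peaks inside the interval already known. Their number and spacing are therefore described and not tested. The values that did not enter the choice are the authors' score of each peak and its width.

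The measurement was chromatin immunoprecipitation followed by sequencing (ChIP-seq), which maps where a protein sits on DNA. The cells were mouse bone marrow mesenchymal stem cells, stromal cells able to give rise to bone, cartilage and fat cells. The series has 1 c-Fos ChIP library and 1 input library, which is DNA taken without an antibody. Both came from cells with p53 knocked out that expressed c-Fos, at fewer than 20 passages, so neither library shows cells with p53 or cells without added c-Fos. The immunoprecipitation took 50000000 fixed cells and 10 ug of antibody. The sources used here do not say how c-Fos was brought into the cells or whether they were 1 clone. The only file used was the peak list of the ChIP library. It holds no expression values, so the cell type could not be set against its markers. Read depth is unknown, there is no replicate error, and peaks of 1 library are not replicates of each other.

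c-Fos and a Jun protein together make up AP-1, a transcription factor that binds short palindromic DNA motifs in promoters and enhancers. Histones package DNA into nucleosomes, whose core is built of H2A, H2B, H3 and H4, while H1 binds the linker DNA between nucleosomes. Most histone genes of this cluster are switched on when DNA is replicated, and many are near-copies of each other. Transfer RNA (tRNA) genes, which are also multicopy and are read by RNA polymerase III, lie beside them.

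The gene content of the cluster is known here only from RefSeq on another build, GRCm38.p6. Coordinates were not converted, so no peak was assigned to a gene, and it was not analysed here whether a peak lay on any named gene. In the RefSeq order, the cluster ran over 255 genes from H2bc13 to H2ac1, of which 56 were histone genes. There were 6 genes for H1, 15 for H2A, 15 for H2B, 9 for H3 and 11 for H4, with 2 pseudogenes among the 56. The histone genes stood in 3 groups. The first held 19, from H2bc13 to H4bc24. It was followed by 39 genes without a histone gene, of which 31 encoded tRNAs. The second group held 5, from H2ac12 to H2bc11. Then came 147 genes without a histone gene. They comprised 75 vomeronasal type 1 receptor genes, which encode pheromone receptors of the nose and of which 39 were pseudogenes, and 46 tRNA genes. The third group held 32 histone genes, from H4c8 to H2ac1. In all, 77 of the 430 tRNA genes in the RefSeq table (17.9%) stood in this cluster, which had 0.51% of the table's genes.

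**Figure D1:**
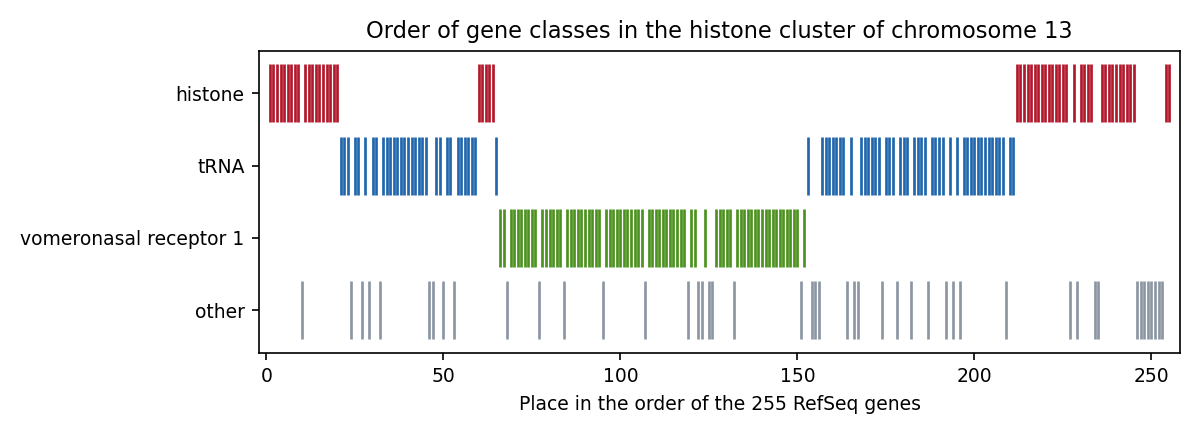
Each vertical line is 1 of the 255 RefSeq genes of the cluster, placed by its order along chromosome 13 (x axis, place in the order, not distance) and by its class (y axis). The 56 histone genes form 3 groups, with the 77 tRNA genes beside them and the 75 vomeronasal receptor genes between the second and the third group.

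The 4 genes after which the cluster is described all stood in the third group. H4c8 (Hist1h4h), which encodes the core histone H4, was its first gene and directly followed a tRNA gene, n-TMcat9. H1f4 (Hist1h1e), H1f2 (Hist1h1c) and H1f1 (Hist1h1a) encode linker histones and came later in that order. H1f1 stood between H3c1 and Trim38. Their promoters are printed to show the letters that each of them carries, and none stands for its whole family. Each is the RefSeq sequence of 300 bases, from 250 before to 50 after the gene's start. Capitals mark the letters CCAAT, the TATA box as TATAAA, the cAMP response element as TGACGTCA and the AP-1 site as TGANTCA, searched on both strands. The positions are in GRCm38.p6, and a number that resembles an mm9 peak position is not the same place.
H1f1 (Hist1h1a), GRCm38.p6 chr13:23763418-23763717, plus strand: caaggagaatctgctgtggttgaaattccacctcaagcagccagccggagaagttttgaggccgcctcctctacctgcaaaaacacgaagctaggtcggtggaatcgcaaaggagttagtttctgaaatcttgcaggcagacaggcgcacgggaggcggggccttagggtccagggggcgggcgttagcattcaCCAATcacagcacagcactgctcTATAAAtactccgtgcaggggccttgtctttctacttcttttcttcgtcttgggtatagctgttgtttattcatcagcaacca
H1f2 (Hist1h1c), GRCm38.p6 chr13:23738557-23738856, plus strand: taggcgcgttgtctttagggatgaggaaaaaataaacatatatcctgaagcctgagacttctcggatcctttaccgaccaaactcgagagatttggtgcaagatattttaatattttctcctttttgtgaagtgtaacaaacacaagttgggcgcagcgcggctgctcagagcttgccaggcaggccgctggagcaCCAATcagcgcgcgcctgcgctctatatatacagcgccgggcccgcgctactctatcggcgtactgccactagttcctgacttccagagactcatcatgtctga
H1f4 (Hist1h1e), GRCm38.p6 chr13:23622509-23622808, minus strand: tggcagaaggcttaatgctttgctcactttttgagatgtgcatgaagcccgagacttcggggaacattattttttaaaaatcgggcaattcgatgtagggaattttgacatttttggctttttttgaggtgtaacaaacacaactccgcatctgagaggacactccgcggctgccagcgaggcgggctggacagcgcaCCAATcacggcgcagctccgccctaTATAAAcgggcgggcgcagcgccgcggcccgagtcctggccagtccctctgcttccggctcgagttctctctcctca
H4c8 (Hist1h4h), GRCm38.p6 chr13:23530794-23531093, plus strand: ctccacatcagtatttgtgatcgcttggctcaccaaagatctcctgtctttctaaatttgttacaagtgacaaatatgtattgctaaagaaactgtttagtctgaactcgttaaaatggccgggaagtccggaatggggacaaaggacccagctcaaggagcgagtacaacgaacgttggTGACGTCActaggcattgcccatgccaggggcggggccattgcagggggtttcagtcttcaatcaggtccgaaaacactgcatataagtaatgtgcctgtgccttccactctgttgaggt

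The 3 printed H1 promoters were alike in layout and unlike H4c8. CCAAT, the letters bound by the factor NF-Y, began 56, 54 and 52 bases before the start in H1f1, H1f2 and H1f4. TATAAA, letters of the TATA box, which near a start helps to place it, began 33 bases before it in H1f1 and 27 in H1f4, and H1f2 did not hold these exact letters. The H4c8 promoter held neither. It held TGACGTCA, the cAMP response element to which CREB and some Fos-Jun and ATF-Jun pairs bind, beginning 70 bases before the start. None of the 4 held TGANTCA, the letters of the AP-1 site with any base in the middle.

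Over the cluster, RefSeq promoters were at hand for 51 of the 56 histone genes, with 52 promoters in all. CCAAT was in 44 of the 52 (84.6%), against 12270 of all 32817 promoters of the table (37.4%). It was in every H1, H2A, H2B and H3 promoter at hand (6, 13, 15 and 7), but in 3 of 11 for H4. TATAAA was somewhere in 31 of 52 (59.6%), against 13.6% of all promoters. By family it was in 4 of 6 for H1, 8 of 13 for H2A, 7 of 15 for H2B, 4 of 7 for H3 and 8 of 11 for H4. H4c8, without it, was thus not typical of H4. TATAAA began 100 to 20 bases before the start in 14 of 52 (26.9%), against 5.07% of all promoters. These 14 were 4 of 6 for H1, 4 of 13 for H2A, 2 of 15 for H2B, 3 of 7 for H3 and 1 of 11 for H4. In the same window CCAAT began in 40 of 52 (76.9%), against 17.2%. TGANTCA was in 3 of 52 (5.77%), against 7.81% of all promoters. With G in the middle, TGAGTCA, which on the other strand reads TGACTCA, it was in 0 of 52, against 5.20% of all promoters. The search with G in the middle and the window before the start were added after the matches had been seen. TGACGTCA was in 4 of 52 (7.69%), against 1.79%. Only 2 of the 11 H4 promoters held it. Neighbouring H2A and H2B genes share promoter sequence, so a match can be counted for both. A match describes these letters only and is not a binding site.

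The histone promoters with TGANTCA are shown, with 12 bases to each side and the match in capitals, so that the middle base can be read. The site that c-Fos with Jun is known for has G or C there, and these have A or T. H2ac13 (Hist1h2ai) shares the first of them on the other strand.
H2bc13 (Hist1h2bl), GRCm38.p6 chr13:21716228-21716258, minus strand: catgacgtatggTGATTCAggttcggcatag
H1f5 (Hist1h1b), GRCm38.p6 chr13:21780840-21780870, minus strand: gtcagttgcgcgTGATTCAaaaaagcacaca
Those with TGACGTCA, besides H4c8, came from H2bc11, which shares its match with H2ac11 (Hist1h2ag), and from H4c1, which had 2 matches.
H2bc11 (Hist1h2bj), GRCm38.p6 chr13:22043090-22043121, plus strand: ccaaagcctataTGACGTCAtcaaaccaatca
H4c1 (Hist1h4a), GRCm38.p6 chr13:23761328-23761359, minus strand: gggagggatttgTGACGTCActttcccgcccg
H4c1 (Hist1h4a), GRCm38.p6 chr13:23761264-23761295, minus strand: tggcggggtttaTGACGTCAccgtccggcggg

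Copies of histone genes can be alike to the letter. Of the 52 promoters, 10 (19.2%) held a stretch of 35 bases that also occurred in another promoter of the table that does not overlap it, against 3335 of all 32817 promoters (10.2%). For H4 these were 5 of 11, for H2A 3 of 13 and for H2B 2 of 15, while for H1 and H3 there were 0 of 6 and 0 of 7. The 10 are not separate cases. Those from H2bc23 to H4bc24 stood next to each other in the gene order, and neighbouring H2A and H2B genes share promoter sequence. Of the 266 places where such a stretch can begin in a promoter, H4c9 shared only 4 and H2ac7 only 6. The H2bc23 promoter printed here occurred a second time, letter for letter, at H4bc24 (Hist1h2br; chr13:21833493-21833792, plus strand), a symbol given as RefSeq has it. Capitals again mark CCAAT or its complement ATTGG.
H2bc23 (Hist1h2bq), GRCm38.p6 chr13:21810150-21810449, minus strand: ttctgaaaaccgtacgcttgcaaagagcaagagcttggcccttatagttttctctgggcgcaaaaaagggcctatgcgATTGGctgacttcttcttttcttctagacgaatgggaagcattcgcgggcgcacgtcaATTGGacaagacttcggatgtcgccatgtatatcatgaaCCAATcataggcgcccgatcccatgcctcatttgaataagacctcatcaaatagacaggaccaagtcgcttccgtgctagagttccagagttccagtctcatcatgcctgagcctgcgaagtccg
The H4c17 and H4c18 promoters were 99.0% identical over their alignment, and those of H4c11 and H4c12 87.6%. The printed promoters were far less alike. H1f2 and H1f4 were each other's closest at 61.6%, H1f1 was closest to H1f2 at 52.8%, and H4c8 was closest to H4c11 at 52.9%. For comparison, the median histone promoter was 56.7% identical to its closest relative in the cluster. Median identity to the histone promoters of the cluster was 47.3% for H1f1, 47.1% for H1f2, 46.4% for H1f4 and 46.5% for H4c8. The 52.8% of H1f1 and the 52.9% of H4c8 were thus not far above the level of any histone promoter taken in this alignment. H1f1, H1f2, H1f4 and H4c8 had no stretch of 35 bases in common with another promoter. Gene bodies were not compared. Whether reads that suit several copies entered any of the c-Fos peaks was not tested, since the mm9 sequence, the read length and the treatment of such reads were not at hand.

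In mm9, the 33 c-Fos peaks fell into a lower and an upper group with a wide empty stretch between them. The lower group held 13 peaks between 21802038 and 22143126, a span of 341 kb. The upper group held 20 between 23390194 and 23793380, a span of 403 kb. No peak lay between 22143127 and 23390193, a distance of 1.25 Mb. Empty stretches of at least that length, this one included, numbered 18 on chromosome 13 and 398 among the 10845 gaps between neighbouring peaks of the list. Within the groups there were 38.1 peaks per Mb in the lower and 49.6 per Mb in the upper. The groups were parted at the widest gap and measured between their outermost peaks, which raises these 2 densities. They are not comparable with those that follow. Over the whole interval the density was 15.7 per Mb, against 4.08 per Mb on the rest of chromosome 13. Cut into 21 tiles of 100 kb, the interval had peaks in 8 of them. The fullest tile, 23500001 to 23600000, held 12 peaks. It was the only one with at least 10 among the 6517 tiles with any peak on chromosomes 1 to 19 and X. That tile contains the run of 9 peaks already known when the interval was set, so its rank is description only. Among 1236 windows of the interval's length, 2.1 Mb, laid over those chromosomes, 11 (0.89%) held at least 33 peaks. The median window held 7 and the fullest 49. These windows lay on a fixed grid, while the interval was placed around the cluster, so the 2 are not chosen alike. Neither count was repeated with close peaks joined.

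**Figure D2:**
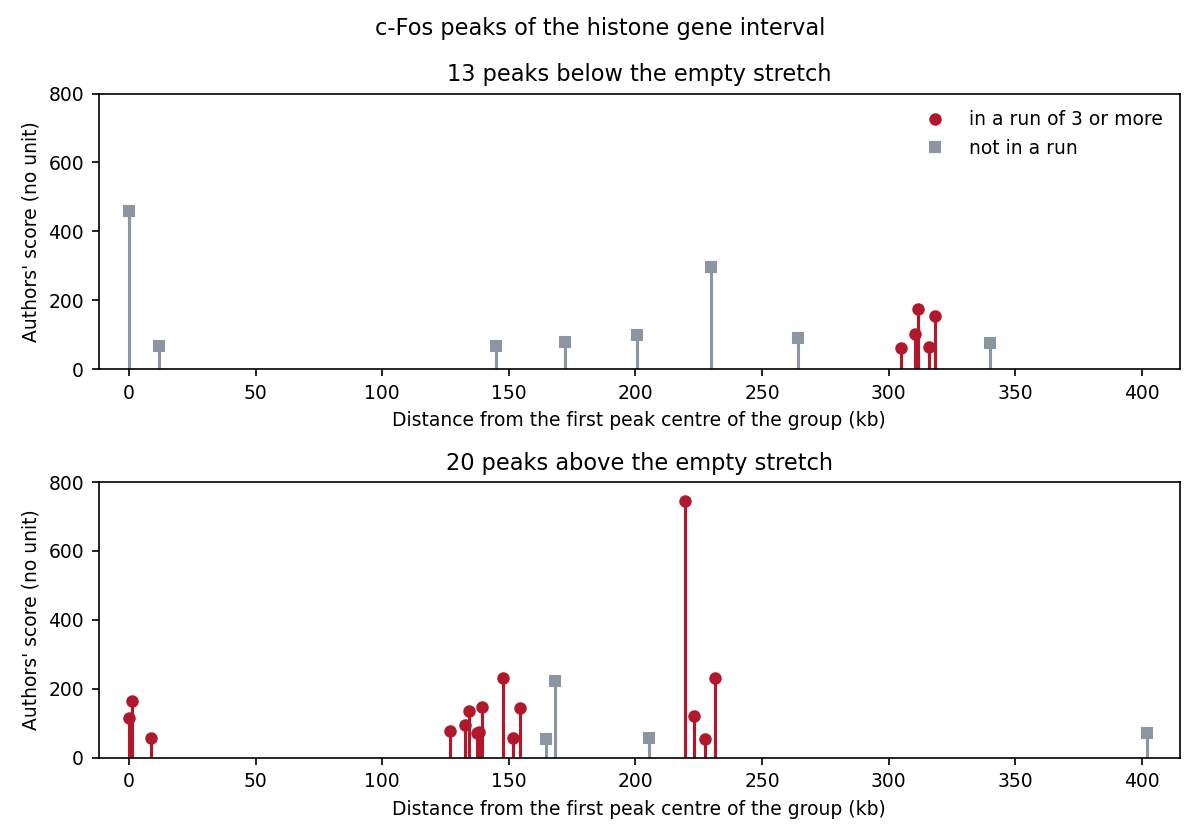
Each line is 1 c-Fos peak, placed by the distance of its centre from the first peak centre of its group (x axis, kb) and drawn up to the authors' score (y axis, no unit). Red circles are peaks in a run of 3 or more within 10 kb and grey squares are the others. The highest peak, at a score of 745.52, belongs to a run of 4 in the upper group, and the second, at 458.36, stands first in the lower group.

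The ends of the interval were set in round numbers. At the lower end, the first peak inside (21802038 to 21803436, score 458.36) lay 103 kb above the limit, and the nearest outside (21509262 to 21510177, score 116.58) lay 190 kb below it. At the upper end, the last inside (23792481 to 23793380, score 71.31) lay 7.07 kb below the limit, and the nearest outside (23822137 to 23823006, score 51.56) 22.6 kb above it.

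The peaks of the histone interval lay close together. The distance from a peak's centre to the nearest other one ran from 0.836 to 34.5 kb with a median of 3.56 kb, while over all other peaks the median was 27.4 kb. A neighbour within 10 kb was found for 23 of the 33 (69.7%), against 27.2% of all other peaks. In the upper group 18 of 20 peaks had one, and in the lower group 5 of 13. The interval was chosen by position with its run of 9 peaks already known, so nothing is read from these shares.

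**Figure D3:**
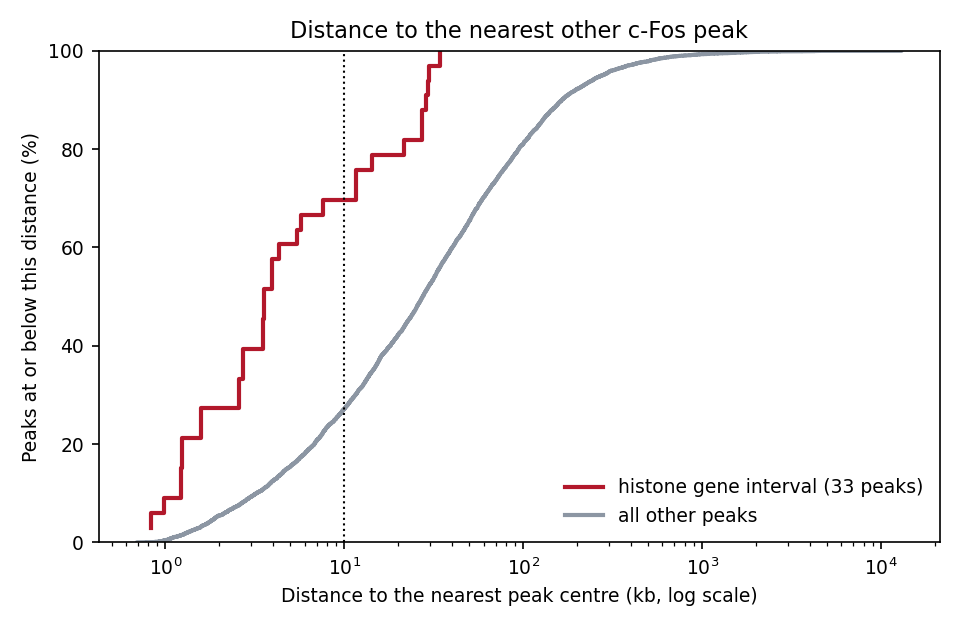
Cumulative share of peaks (y axis, %) by the distance to the nearest other peak centre (x axis, kb, log scale), in red for the 33 peaks of the histone interval and in grey for all other peaks. The dotted line marks 10 kb, which 69.7% of the 33 peaks and 27.2% of the other peaks did not exceed.

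Runs, here at least 3 peaks with neighbouring centres within 10 kb, took up 21 of the 33 peaks (63.6%), against 7.42% of all other peaks. There were 4 of them, of 5, 3, 9 and 4 peaks, out of 241 runs in the list. The run of 9, from 23517243 to 23545795, spanned 28.6 kb. In order of position its scores were 76.62, 96.08, 136.33, 70.89, 75.80, 148.53, 230.79, 57.71 and 143.23. Its widths in the same order were 866, 1027, 992, 855, 778, 999, 1565, 898 and 919 bp. The seventh peak, from 23537521 to 23539085, was thus both the highest in score and the widest of the run, and the eighth had the lowest score. The centres were between 0.836 and 8.23 kb apart, with a median of 3.0 kb. Spacing was uneven: the fourth, the fifth and the sixth peak were parted by only 19 and 94 bp, and together reached from 23527829 to 23530573. Above the run, the next peak (23555169 to 23556005, score 55.87) stood 10.3 kb from its last centre and so fell just outside it. Its own neighbour, from 23558719 to 23559502, scored 223.04 at a width of 784 bp.

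The run of 4, from 23608698 to 23622855, began with the peak of highest score in the interval. That peak ran from 23608698 to 23612033, was 3336 bp wide and scored 745.52. It ranked 51 by score and 9 by width among the 10870 peaks, and it was the only one of the 33 among the list's 10 peaks over 3 kb. The other scores of that run were 120.85, 55.99 and 231.21, at widths of 874, 861 and 1030 bp. Its centres were 3.56 to 4.48 kb apart, a narrower range than in the run of 9.

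The run of 5 lay in the lower group, from 22107398 to 22121536. Its scores were 63.31, 103.68, 174.28, 64.56 and 153.96, and its widths 667, 961, 797, 849 and 854 bp. The first of these was the narrowest of the 33 peaks. The run of 3, from 23390194 to 23399990, opened the upper group, with scores of 115.82, 165.29 and 56.12. Its first and second peaks were parted by 174 bp and the third lay 7.57 kb on. In each of these 4 runs peaks under 80 stood beside peaks over 140. Runs elsewhere also mixed low and high scores, so this is not a trait of the histone interval. The run on chromosome 3 from 88294461 to 88326373 had scores from 60.25 to 742.12. How many runs of the list did so was not counted.

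**Figure D4:**
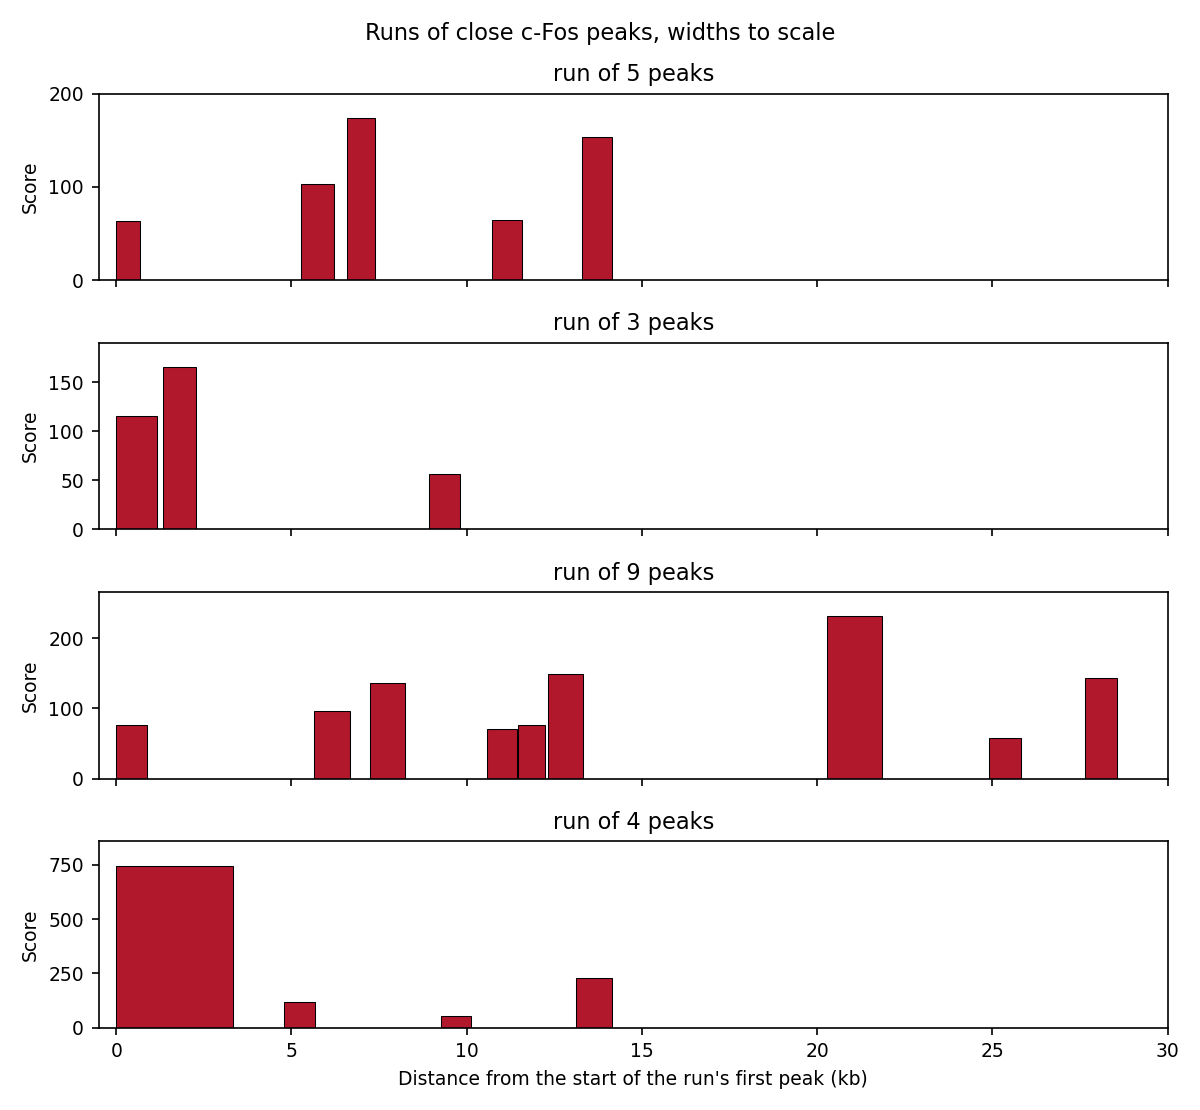
Each panel is 1 run, and each box is 1 c-Fos peak drawn to scale by its width (x axis, kb from the start of the run's first peak), with the authors' score as its height (y axis, no unit, scaled for each panel). The fourth to sixth boxes of the run of 9 nearly touch, and the first box of the run of 4 is 3336 bp wide.

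Set beside the other long runs of the list, the run of 9 had many peaks of modest score. Of the 14 runs with at least 5 peaks, 2 were in the histone interval, and the run of 9 ranked 1 by number of peaks. By highest score it ranked 12 of 14 at 230.79, and the run of 5 ranked 13 at 174.28, while the other 12 had highest scores from 166.95 to 861.62 with a median of 531. By median score they ranked 10 (96.08) and 8 (103.68), and the other 12 ranged from 65.0 to 298 with a median of 118. Median distances between centres were 3.0 kb in the run of 9 and 3.37 kb in the run of 5, against 2.79 to 8.21 kb in the other 12. The peaks covered 31.2% of the run of 9 and 29.2% of the run of 5, and 14.2% to 47.4% of the others. For all these values except the number of peaks, the run of 9 was within the range of the other 12. With 1 library and runs picked for their length, no test was made.

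The authors' scores of the 33 peaks lay near those of the list. They ran from 55.87 to 745.52 with a median of 96.08 (95% interval from order statistics 71.31 to 143.23), and all other peaks had a median of 101.14 (99.54 to 103). A score of at least 100 was reached by 16 of the 33 (48.5%, Wilson 95% interval 32.5 to 64.8%), against 50.7% of all other peaks. At least 200 was reached by 6 (18.2%), against 18.6%, and 5 scored under 60 (15.2%), against 15.6%. These shares were near those of the list and are not a result about the histone interval. The intervals describe positions in 1 list and not variation between cultures. The 5 highest scores were 745.52, 458.36, 296.64, 231.21 and 230.79, which ranked 51, 297, 915, 1551 and 1554 in the list. Of these, the peak at 296.64, from 22031856 to 22033238, had no neighbour within 10 kb, nor did the peak at 458.36. Within the interval, the median score was 116 (95% interval 70.89 to 153.96) for the 21 peaks in runs. It was 76.9 (66.6 to 223.04) for the 12 outside them. These intervals overlapped widely, so no difference in score is read from them. A score of at least 200 was reached by 3 of the 21 and by 3 of the 12. In the rest of the list, peaks in runs had a median of 110, against 101.14 for all other peaks, in runs or not. The lower and upper groups had medians of 90.08 and 106, with ranges of 63.31 to 458.36 and 55.87 to 745.52 that overlapped widely.

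The median width was 898 bp (95% interval 856 to 961 bp), against 949 bp (946 to 952 bp) for all other peaks, and these intervals overlapped. The range was 667 to 3336 bp. The 3 narrowest were 667, 778 and 784 bp. Among the widest 5% of the list, 1312 bp or more, were 5 of the 33 (15.2%), against 4.97% of all other peaks. After the peak of 3336 bp, the next widest measured 1565 bp in the run of 9 and 1545 bp in the lower group. That last peak, from 21946811 to 21948355, scored 66.60, and of the 544 peaks at least 1312 bp wide 15 scored lower. The other two of the 5 were the peaks that scored 458.36, at 1399 bp, and 296.64, at 1383 bp.

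Peaks of higher score tended to be wider. Between score and width, Spearman's rho was 0.47 over the 33 peaks of the histone interval and 0.70 over all other peaks. Pearson's r was 0.85 over the 33 peaks and 0.52 over all other peaks. Without the peak of highest score, rho was 0.42 and r was 0.55, so the size of r rested on that peak. The points share 1 library and a common score threshold, and these correlations are given as a description.

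**Figure D5:**
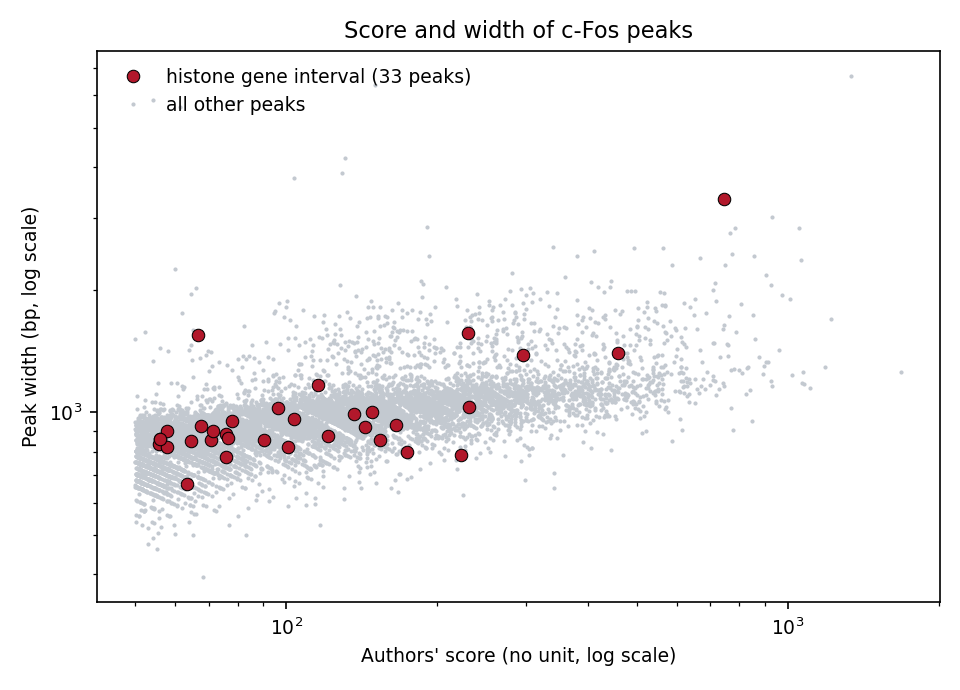
Authors' score (x axis, no unit, log scale) and width (y axis, bp, log scale), with the 33 peaks of the histone interval as red circles and all other peaks as grey dots. Most red circles lie within the grey cloud, with the peak of 3336 bp and a score of 745.52 near its upper edge and the peak of 1545 bp above most others of its score.

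The spacing values depend on whether close peaks are counted singly or joined. Of the 32 gaps between neighbouring edges in the interval, 8 were at most 2 kb and 3 were under 200 bp. When peaks with edges within 2 kb were joined, 25 regions remained of the 33 peaks, of which 7 held more than 1 deposited peak. Over the whole list the same step left 10346 regions of 10870 peaks. Gaps under 200 bp are not counted here for the whole list. The median distance between neighbouring centres was 13.6 kb after joining and 6.65 kb as deposited. Joining removes the shortest gaps, so a longer distance follows from the step itself. The joined distance is not given for the rest of the list. The run of 9 became a run of 5 regions, with widths of 866, 2588, 2745, 1565 and 3639 bp. Joined in the same way, the list had 5 runs of at least 5 regions, and the longest had 6. The joined run in the histone interval was therefore not the longest of the list. Sequencing depth, signal height and mappability were not at hand, so whether neighbouring peaks belong to 1 broader region was not tested.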

How the data were processed

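The peak list of the 1 c-Fos ChIP library was the only measured file used. The score of each peak is the value deposited by the authors, and its scale is not stated. CASAVA 1.8.2, MACS 1.4.1 and the build mm9 appear in the submitters' processing notes, with no role stated. The sources used here do not give the aligner, the peak threshold or the control. The lowest score was 50.01, and sites below it are not in the list.

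The members and gene lists were chosen with earlier results of these data known. A run is at least 3 peaks with neighbouring centres within 10 kb. Peaks named are those of every run, the 5 of highest score, the 3 widest, the 3 narrowest and those at the ends of the interval. The peak that begins at 23555169 was named besides, after its values were seen, as the neighbour of the run of 9. No test was made, as peaks of 1 library are not replicates. The run finder was tested on simulated positions. Promoters came from RefSeq (GRCm38.p6) and were aligned end to end, each base scoring 1 for a match, 0 for a mismatch and -1 for a gap. Identity is the share of identical columns. Tools were Biopython 1.88, pandas 2.3.3, scipy 1.17.1, matplotlib 3.10.9 and numpy 2.4.6 under Python 3.11.15. As alternatives, only peaks scoring 100 or more were used, or the widest 5% were dropped. Others were joining peaks within 2 kb, an interval 100 kb longer or shorter at each end and a distance of 5 or 20 kb. Leaving out the peak of highest score was added after the data were seen.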

Additional observations from a re-analysis of the deposited data

How the results depend on the processing

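Of 45 recomputed values, 39 stayed within the 95% interval of the main value or within 1.5 times a count. The other 6 moved. Some intervals were wide, so the 39 are not a measure of stability. The median distance between neighbouring centres counted as unmoved when joining took it from 6.65 to 13.6 kb. Its interval ran from 3.56 to 27.3 kb. A score of at least 100, which removes low peaks by construction, left 16 of the 33 peaks. Their median score was 160, their median width 976 bp, and the longest run held 4. The run of 9 became 5 when peaks within 2 kb were joined, and also 5 with a distance of 5 kb. With 20 kb it reached 11. Without the widest 5% of peaks, which took out the seventh peak of the run, the longest run held 6. That value was counted among the 39, at the limit of 1.5 times. The share of peaks with a neighbour within 10 kb was 69.7% as deposited. It stayed within its interval, 52.7% to 82.6%, under the alternatives that kept this distance. With a distance of 5 or 20 kb the share was 60.6% or 78.8%. These 2 values were counted among the 39, but they measure something else and cannot check the share at 10 kb. The interval treats peaks as independent, although closeness is mutual between neighbours. No stability of the share is therefore read from it. An interval 100 kb longer or shorter at each end held 34 or 32 peaks. Without the peak of highest score, the median score was 93.1. Read depth is unknown, so sites under the lowest score cannot be counted. No paired analysis was possible because only 1 library was immunoprecipitated.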
